A study of Mus musculus with 8 samples.

Results

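The comparison set MRL/MpJ, which the study classes as a good healer, against C57BL/6J (written C57BL6/J in the files), which it classes as a poor one. All assay replicates under these strain names were taken, 9 of MRL/MpJ and 9 of C57BL/6J in each of 2 panels of mRNAs, which is 18 of the 76 in the first panel and 18 of the 78 in the second. All 67 target mRNAs of the panels were compared. The mice had a full-thickness defect made in the articular cartilage of the knee at 8 weeks of age, and the methods place the harvest 16 weeks after surgery. Every strain was injured, so no uninjured knee enters the comparison. The methods give 3 to 4 mice and 25 formalin-fixed, paraffin-embedded sections per strain, from which the joint was cut out as a composite of cartilage, bone below it, growth plate, meniscus, joint capsule and synovium. In such a composite, fewer cells of a type and less RNA per cell cannot be told apart.

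MRL/MpJ is an inbred strain known for closing ear punch holes and for repairing articular cartilage, and C57BL/6J is the usual strain that does neither well. Articular cartilage is made by chondrocytes that lay down type II collagen and aggrecan, and it heals poorly because it has no blood supply and few dividing cells. The target mRNAs covered processes that repair can draw on, among them DNA repair and replication, Wnt signalling, remodelling of matrix by proteases, bone formation, autophagy and inflammation. The 2 strains differ across the whole genome, and each was 1 inbred strain, so a difference between them is a difference between these strains and not a test of healing.

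The QuantiGene Plex assay captures each mRNA on its own kind of bead straight from the tissue homogenate, without extraction or amplification of the RNA, and branched DNA built on the captured mRNA gives a fluorescent signal. Normalized expression is the part of a target's log10 signal that a regression on its panel's reference genes left over, so that 0 is the value predicted from the reference genes. Differences are given here as MRL/MpJ minus C57BL/6J on the log2 scale, where 1 is a doubling. The signals of the targets in the 2 strains ranged from 3 to 26701, with a median of 59.5 in MRL/MpJ and 34 in C57BL/6J. Signals under 10 made up 11.1% of the values of MRL/MpJ and 18.9% of those of C57BL/6J. The number of beads and the background behind each signal are not given in the files used here, so single values carry no interval of their own.

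The 9 assay replicates of a strain were not 9 independent values. Signals 1 to 3, 4 to 6 and 7 to 9 lay together in runs. A median of 79.8% of the variance within a strain lay between these runs over the 67 mRNAs, and in 53 of them it was over 50%. *Gapdh* of the first panel and *Gapdh* of the second moved together over the 18 assay replicates (Pearson's r = 0.969), as did *Hprt1* (r = 0.877). These values are a description, since signals of the same number in the panels may come from the same homogenate. The files do not say whether a run is 1 mouse. The p-values of the exact permutation test over assay replicates therefore measure the spread between assay replicates, not between mice. With 3 values a strain the smallest two-sided p of an exact permutation test is 0.1, and with 4 it is 0.0286. For the deposited values, and for the 6 mRNAs described at length, a second value is given from limma on the means of the runs, 3 a strain, which was added after the data were seen.

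The reference genes were higher in MRL/MpJ before normalization. *Gapdh*, a glycolytic enzyme, had signals of 10100 to 23725 with a median of 15177 in MRL/MpJ in the first panel, and of 4618 to 10326 with a median of 5504 in C57BL/6J. This is a 2.37-fold difference (log2 difference 1.24, SE 0.24, adjusted p = 0.000617 by the exact permutation test over 5 reference gene tests, n = 9 and 9). The fold was 2.33 for *Gapdh* in the second panel, 2.10 and 1.93 for *Hprt1*, an enzyme of purine salvage, in the first and second, and 1.61 for *Actb*, the cytoskeletal actin. The signals of the strains overlapped in each of these 5, since signals 1 to 3 of MRL/MpJ were low and signals 7 to 9 of C57BL/6J were high. The targets followed. Without normalization 66 of the 67 target mRNAs had a positive difference, with a median of 0.77, or 1.70-fold. After the deposited normalization the median was 0.07.

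**Figure D1:**
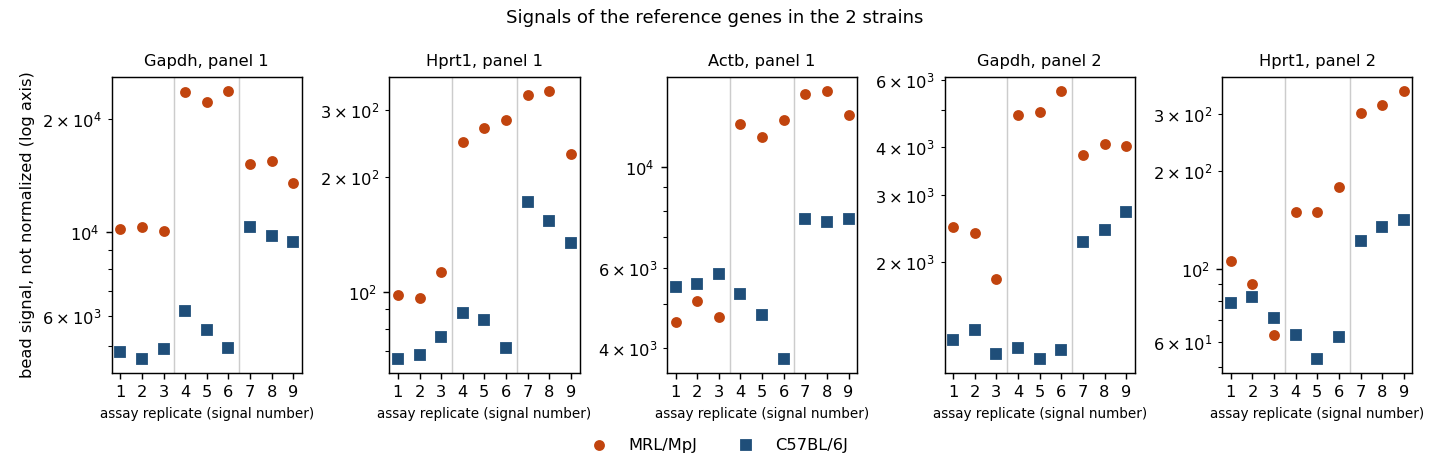
Bead signals of the reference genes before normalization (log axis) against the number of the assay replicate, for MRL/MpJ (circles) and C57BL/6J (squares), with grey lines between the runs of 3. *Gapdh* was 2.37-fold higher in MRL/MpJ in the first panel and 2.33-fold in the second, and the points step from run to run in both strains.

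In normalized expression, 7 of the 67 mRNAs passed the exact permutation test at an adjusted p under 0.05 (10.4%). Of these, 5 were higher in MRL/MpJ (7.46%) and 2 were lower (2.99%). The higher ones included *Mmp3*, *Xrcc2*, *Axin2* and *Pcna*, and the lower ones were *Bglap1* and *Mmp9*. At an unadjusted p under 0.05 there were 18 (26.9%), 10 of them higher. The assay replicates of the strains did not overlap in 2 mRNAs (2.99%), *Xrcc2* and *Bglap1*. The means of the runs did not overlap in 7 mRNAs (10.4%), among them all 6 named here. With 3 values a strain such a separation has an exact permutation p of 0.1. About this share is thus reached with no strain difference. By limma on the means of the runs, 2 mRNAs passed after adjustment (2.99%), again *Xrcc2* and *Bglap1*. At an unadjusted p under 0.05 limma gave 6 (8.96%), which were the 6 named here. In the second panel limma gave every mRNA the same SE, 0.206, so its p-values there rest on a spread shared over 34 mRNAs.

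The split between higher and lower followed the normalization. Dividing by all reference genes of the panel gave 4 higher (5.97%) and 21 lower (31.3%), by *Gapdh* alone 0 higher and 37 lower (55.2%), and by *Hprt1* alone 2 higher (2.99%) and 8 lower (11.9%). With no normalization 51 were higher (76.1%) and 0 lower. These counts are over assay replicates. On means of runs as ratios to all reference genes 0 of 67 passed by limma (14 at an unadjusted p under 0.05), so every ratio to all reference genes given below as past the threshold is past it over assay replicates only. The median difference over the 67 mRNAs was −0.26, −0.47, −0.27 and 0.77 in these. The direction of *Xrcc2*, *Pcna*, *Axin2* and *Mmp3* was the same in each, with differences of 1.63, 1.63, 1.32 and 2.09 without normalization. That of *Mmp9* and *Bglap1* was the same under every ratio and turned with no normalization, where their differences were 0.24 and 0.01.

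**Figure D2:**
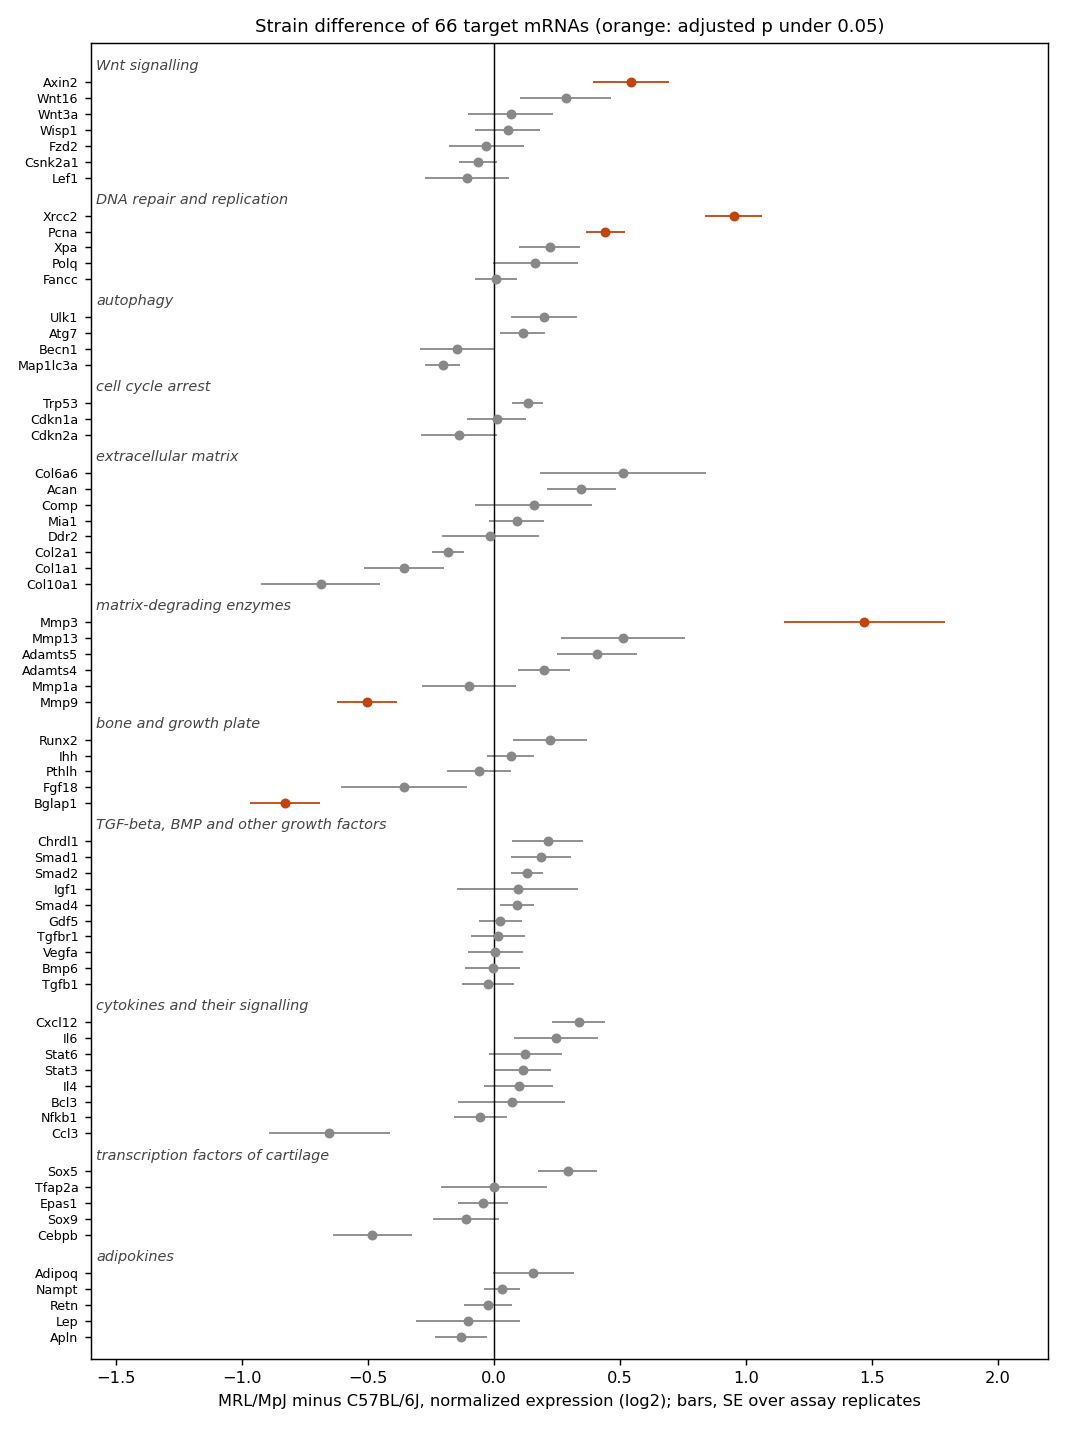
Difference in normalized expression, MRL/MpJ minus C57BL/6J on the log2 scale, of 66 target mRNAs grouped by role. Points are differences of means over 9 assay replicates a strain, bars are their SE over assay replicates, and orange marks an adjusted p under 0.05 by the exact permutation test. *Mmp3* stands at 1.47 and *Xrcc2* at 0.95, while *Bglap1* at −0.83 is at the other end.

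Among 5 mRNAs of DNA repair and replication, 2 rose in MRL/MpJ relative to C57BL/6J and none fell, where 7.46% of all 67 rose and 2.99% fell. The median difference of the list was 0.22, against 0.07 over all 67 mRNAs, and as ratios to all reference genes it was −0.10, against −0.26. *Xrcc2*, which acts in the repair of DNA breaks by homologous recombination, had normalized values of 0.0304 to 0.214 with a median of 0.0922 in MRL/MpJ, and of −0.289 to −0.0333 with a median of −0.187 in C57BL/6J (log10). Every assay replicate of MRL/MpJ lay above every one of C57BL/6J. The difference was 0.95 (SE 0.11), or 1.93-fold (adjusted p = 0.00138 by the exact permutation test, n = 9 and 9). The means of the runs were 0.151, 0.121 and 0.0485 in MRL/MpJ and −0.238, −0.121 and −0.178 in C57BL/6J, and 33.2% of the variance within strains lay between runs. On these means limma gave an adjusted p of 0.000601. The difference was 0.54 as a ratio to all reference genes (adjusted p = 0.0107 by the exact permutation test) and 0.41 as a ratio to *Gapdh* alone (adjusted p = 0.0792). With that ratio to all reference genes on means of runs the call was lost (adjusted p = 0.517 by limma). The signals of *Xrcc2* were low, with a median of 33.5 in MRL/MpJ and 11 in C57BL/6J.

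*Pcna*, the sliding clamp of DNA polymerase and a marker of replicating cells, had normalized values of −0.0584 to 0.136 with a median of 0.0292 in MRL/MpJ. In C57BL/6J they ran from −0.136 to −0.0368 with a median of −0.0835. Of the 9 assay replicates of MRL/MpJ, only signal 9, at −0.0584, fell inside the range of C57BL/6J. The difference was 0.44 (SE 0.08), or 1.36-fold (adjusted p = 0.00184 by the exact permutation test, n = 9 and 9). The means of the runs, 0.0768, 0.0691 and −0.0124 against −0.0649, −0.112 and −0.0874, did not overlap, and limma on them gave an adjusted p of 0.383. As a ratio to all reference genes the difference was 0.54 (adjusted p = 0.00138 by the exact permutation test), to *Hprt1* alone 0.68 (adjusted p = 0.000551), and to *Gapdh* alone 0.41 (adjusted p = 0.196). Its signals were well above those of *Xrcc2*, with medians of 636 and 194.

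The other 3 of the list did not pass. The difference was 0.22 (SE 0.12) for *Xpa*, which verifies damage in nucleotide excision repair, 0.16 (SE 0.17) for *Polq*, the polymerase of microhomology-mediated end joining, and 0.01 (SE 0.08) for *Fancc*, of the Fanconi anaemia core complex. As ratios to all reference genes these 3 were negative, at −0.32, −0.10 and −0.79, with an adjusted p of 0.0110 for *Fancc* by the exact permutation test.

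Wnt signalling was covered by 7 mRNAs, of which 1 rose and none fell, a count near the 7.46% that rose over all 67, with a median difference of 0.05. *Axin2*, a target of canonical Wnt signalling that feeds back to limit it, had normalized values of −0.164 to 0.195 with a median of −0.0292 in MRL/MpJ, and of −0.303 to −0.0769 with a median of −0.140 in C57BL/6J. Signals 1 to 3 of MRL/MpJ, at 0.0841 to 0.195, stood above all others, and signal 4, at −0.164, lay within the range of C57BL/6J. The difference was 0.54 (SE 0.15), or 1.46-fold (adjusted p = 0.00866 by the exact permutation test, n = 9 and 9). The means of the runs were 0.156, −0.0878 and −0.0211 in MRL/MpJ against −0.204, −0.109 and −0.129, and limma on them gave an adjusted p of 0.207. As a ratio to all reference genes the difference was 0.23 (adjusted p = 0.414 by the exact permutation test), and as ratios to *Hprt1* or *Gapdh* alone it was 0.37 and 0.10 (adjusted p = 0.354 and 0.664). Without signals 1 to 3 of MRL/MpJ it was 0.31 (adjusted p = 0.0571 by the exact permutation test). With strain and reference genes in one model it was 0.88. Leaving out any of the 3 runs of C57BL/6J also ended the call, with differences of 0.45, 0.60 and 0.57 (adjusted p of 0.128, 0.0509 and 0.0521). Its signals were the lowest of the 6 named above, with medians of 29 and 10.

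Neither Wnt ligand passed. *Wnt16*, a ligand that rises in injured cartilage, had values of −0.0829 to 0.334 in MRL/MpJ and of −0.149 to 0.0348 in C57BL/6J. The difference was 0.28 (SE 0.18, adjusted p = 0.379 by the exact permutation test), and it was −0.14 as a ratio to *Gapdh* alone. Signals 1 to 3 of MRL/MpJ had a mean of 0.244, against −0.0647 and −0.0350 in the other runs, and without them the difference was −0.0409. *Wnt3a* differed by 0.07, the receptor *Fzd2* by −0.03, the kinase subunit *Csnk2a1* by −0.06, the transcription factor *Lef1* by −0.11 and the secreted *Wisp1* by 0.05. As ratios to all reference genes the list had a median of −0.50, against −0.26 over all 67, with 0 higher and 2 lower, a share near the 31.3% lower over all 67. The 2 were *Fzd2* at −1.06 (adjusted p = 0.0308 by the exact permutation test) and *Lef1* at −0.71 (adjusted p = 0.0131), whose median signals were 4 to 14.

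Of the 6 matrix-degrading enzymes, 1 rose, 1 fell and 4 did not pass, where 7.46% of all 67 rose and 2.99% fell. Their median difference was 0.30, or 0.0103 as ratios to all reference genes. *Mmp3*, stromelysin 1, cleaves proteoglycans and activates other metalloproteinases. Its normalized values ran from −0.216 to 0.452 with a median of 0.329 in MRL/MpJ, and from −0.382 to −0.147 with a median of −0.255 in C57BL/6J. Signals 1 to 3 and 7 to 9 of MRL/MpJ, at 0.322 to 0.452, stood apart from every C57BL/6J value. Signals 4 to 6, at −0.216 to −0.156, lay among them. The difference was 1.47 (SE 0.32), or 2.77-fold (adjusted p = 0.00597 by the exact permutation test, n = 9 and 9), and it was the largest of the 66 mRNAs reported. With strain and reference genes in one model of the 2 strains it was 2.76. Nearly all the variance within strains, 97.0%, lay between runs. Their means were 0.398, −0.184 and 0.334 in MRL/MpJ against −0.189, −0.335 and −0.255, and limma on them gave an adjusted p of 0.207. The median signal was 79 in MRL/MpJ and 14 in C57BL/6J. As a ratio to all reference genes the difference was 1.09 (adjusted p = 0.0409 by the exact permutation test). As ratios to *Hprt1* or *Gapdh* alone it was 1.03 and 0.85 (adjusted p = 0.0904 and 0.0970). The call was also lost without signals 4 to 6 of C57BL/6J, at 1.34 (adjusted p = 0.0987), and without its signals 7 to 9, at 1.48 (adjusted p = 0.0521). Without signals 1 to 3, 4 to 6 or 7 to 9 of MRL/MpJ the difference was 1.11, 2.08 and 1.22. Each had an adjusted p under 0.05 by the exact permutation test.

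*Mmp9*, gelatinase B, is made by osteoclasts, neutrophils and macrophages and opens the growth plate to vessels. It had normalized values of −0.0426 to 0.197 with a median of 0.118 in MRL/MpJ, and of 0.181 to 0.341 with a median of 0.237 in C57BL/6J. The strains overlapped only between 0.181 and 0.197. The difference was −0.50 (SE 0.12), or 1.42-fold lower in MRL/MpJ (adjusted p = 0.00276 by the exact permutation test, n = 9 and 9). The means of the runs were 0.136, 0.185 and −0.00710 in MRL/MpJ and 0.331, 0.215 and 0.224 in C57BL/6J, and limma on them gave an adjusted p of 0.209. Without signals 1 to 3 of C57BL/6J the difference was −0.38 (adjusted p = 0.0937 by the exact permutation test), and without signals 7 to 9 of MRL/MpJ it was −0.32 (adjusted p = 0.0223). Before normalization the median signals were close, at 486 and 507, while the reference genes were higher in MRL/MpJ. Under the 3 ratios the difference was −0.71 to −0.98.

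The collagenase *Mmp13* differed by 0.51 (SE 0.25) and the aggrecanases *Adamts5* and *Adamts4* by 0.41 (SE 0.16) and 0.20 (SE 0.10). *Mmp1a* differed by −0.10 (SE 0.19). Their adjusted p-values by the exact permutation test were 0.105 to 0.841. As a ratio to all reference genes *Mmp1a* was lower in MRL/MpJ, at −1.07 (adjusted p = 0.0110 by the exact permutation test), which made the list 1 higher and 2 lower, where 5.97% and 31.3% of all 67 were. The median signals of *Mmp1a* were 11 in MRL/MpJ and 11.5 in C57BL/6J, and its difference before normalization was 0.01.

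**Figure D3:**
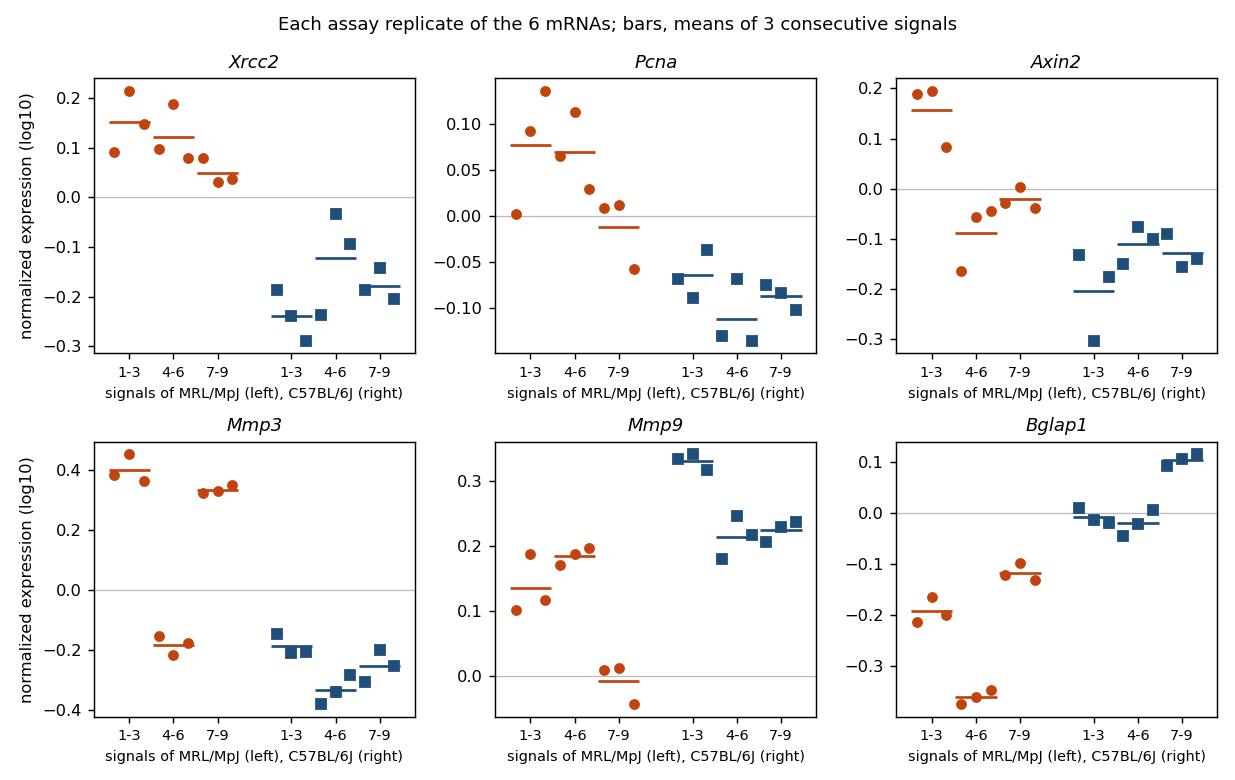
Normalized expression (log10) of 6 mRNAs in each assay replicate, MRL/MpJ as circles at the left and C57BL/6J as squares at the right of each plot, with a bar at the mean of each run of 3 consecutive signals. In *Xrcc2* and *Bglap1* no circle reaches the squares, and in *Mmp3* the circles of signals 4 to 6, at −0.216 to −0.156, lie among the squares.

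Of the 5 mRNAs of bone and growth plate, 1 fell and 4 did not pass, where 2.99% of all 67 fell, with a median difference of −0.06, or −0.66 as ratios to all reference genes. *Bglap1*, osteocalcin, is secreted by osteoblasts into bone matrix. The symbol is an older name of both *Bglap* and *Bglap2*, which are near-identical copies, and the probes may not tell them apart. Its normalized values were −0.375 to −0.0986 with a median of −0.200 in MRL/MpJ, and −0.0452 to 0.115 with a median of 0.00582 in C57BL/6J. Every assay replicate of MRL/MpJ lay below every one of C57BL/6J. The difference was −0.83 (SE 0.14), or 1.78-fold lower in MRL/MpJ (adjusted p = 0.00138 by the exact permutation test, n = 9 and 9). The means of the runs were −0.192, −0.361 and −0.117 against −0.00739, −0.0202 and 0.105, with 96.6% of the variance within strains between runs, and limma on them gave an adjusted p of 0.00318. The median signals before normalization were 994 in MRL/MpJ and 1140 in C57BL/6J, and the difference was −0.94 to −1.21 under the 3 ratios. On means of runs the ratio to all reference genes had an adjusted p of 0.0635 by limma, so that the call was lost there.

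The other 2 bone markers did not pass. *Runx2*, the transcription factor that commits cells to the osteoblast lineage, differed by 0.22 (SE 0.15). *Col1a1*, type I collagen, differed by −0.36 (SE 0.16, adjusted p = 0.155 by the exact permutation test). The summed signal of the 3 bone markers *Bglap1*, *Col1a1* and *Runx2* was 16375 to 28240 in MRL/MpJ and 14271 to 29108 in C57BL/6J, and none was at 0. This sum is not normalized and is mostly *Col1a1*, whose signals were 14955 to 25052 and 13123 to 26701. The mean of the normalized values of the 3 was −0.221 to 0.0108 in MRL/MpJ and −0.0546 to 0.0651 in C57BL/6J. Of the growth plate signals, *Fgf18* differed by −0.36 (SE 0.25), *Ihh* by 0.07 (SE 0.09) and *Pthlh* by −0.06 (SE 0.13). *Ihh* and *Pthlh* were lower as ratios to all reference genes, at −0.73 and −0.66 (adjusted p = 0.00655 and 0.0443 by the exact permutation test), with median signals of 5 to 15. With *Bglap1* this made 3 of the 5 lower as that ratio, where 31.3% of all 67 were.

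None of the 8 extracellular matrix mRNAs passed, and their median difference was 0.04. *Col10a1*, the collagen of hypertrophic chondrocytes, had the largest size at −0.69 (SE 0.24, adjusted p = 0.0755 by the exact permutation test), followed by *Col6a6* at 0.51 (SE 0.33). *Acan*, the aggrecan core protein, differed by 0.34 (SE 0.14) and *Col2a1*, type II collagen, by −0.18 (SE 0.06, adjusted p = 0.0763). *Comp*, *Mia1* and *Ddr2* lay between −0.02 and 0.16. As ratios to all reference genes *Col10a1*, *Col1a1*, *Mia1* and *Col2a1* were lower in MRL/MpJ, with differences of −1.18 to −0.28. Each had an adjusted p under 0.05 by the exact permutation test. These were 4 of the 8, where 31.3% of all 67 were lower. The median of the 8 as that ratio was −0.25, against −0.26 over all 67. *Col10a1* was also the one target with a negative difference before normalization, at −0.18. Of the 5 cartilage markers *Acan*, *Col2a1*, *Mia1*, *Comp* and *Sox9*, 0 passed in the deposited values, and none was at 0 in either strain. Their summed signal was 4629 to 7312 in MRL/MpJ and 2382 to 4247 in C57BL/6J, while the mean of their normalized values overlapped between strains (−0.108 to −0.00452 against −0.113 to 0.00918).

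None of the 8 mRNAs of cytokines and their signalling passed, with a median difference of 0.11. *Ccl3*, a chemokine of macrophages, differed by −0.65 (SE 0.24, adjusted p = 0.0975 by the exact permutation test) and *Cxcl12*, which holds blood stem cells in the bone marrow, by 0.33 (SE 0.11, adjusted p = 0.0563). As a ratio to all reference genes *Ccl3* was lower in MRL/MpJ, at −0.93 (adjusted p = 0.00110 by the exact permutation test). It was the 1 of the 8 that passed there, where 31.3% of all 67 were lower and 5.97% higher. *Il6*, an inflammatory cytokine, had values of −0.139 to 0.218 in MRL/MpJ and of −0.218 to 0.0377 in C57BL/6J. Its difference of 0.25 (SE 0.17, adjusted p = 0.379 by the exact permutation test) was −0.37 as a ratio to all reference genes, and its median signals were 11 and 7. Without signals 1 to 3 of MRL/MpJ it was −0.00974, and without its signals 7 to 9 it was 0.47 (adjusted p = 0.0223 by the exact permutation test). *Stat3*, *Stat6*, *Nfkb1*, *Bcl3* and *Il4* lay between −0.06 and 0.12. Of the 2 markers of myeloid cells and osteoclasts, *Mmp9* passed and *Ccl3* did not. The mean of their normalized values was −0.209 to 0.120 in MRL/MpJ and 0.0804 to 0.250 in C57BL/6J, and neither was at 0. The share of such cells in the composite and its part in the difference of *Mmp9* were not tested.

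None of the 5 transcription factors of cartilage passed. *Cebpb*, which acts in the inflammatory response and in hypertrophy of chondrocytes, had values of −0.214 to 0.150 with a median of −0.0684 in MRL/MpJ, and of 0.0588 to 0.234 with a median of 0.118 in C57BL/6J. Its difference of −0.48 (SE 0.16) had an adjusted p of 0.0563 by the exact permutation test, and −0.87 as a ratio to all reference genes had one of 0.000689, or of 0.217 by limma on means of runs. Without signals 4 to 6 of MRL/MpJ the difference was −0.75 (adjusted p = 0.00167 by the exact permutation test). Without its signals 1 to 3 or 7 to 9 it was −0.43 and −0.27 and did not pass (adjusted p = 0.118 and 0.168 by the same test). *Sox5* differed by 0.29 (SE 0.12) and *Sox9*, the master regulator of chondrocytes, by −0.11 (SE 0.13) and as that ratio by −0.48 (adjusted p = 0.0443 by the exact permutation test), while *Epas1* differed by −0.04 and *Tfap2a* by 0.000305.

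None of the 4 mRNAs of autophagy passed. *Map1lc3a*, a protein of the autophagosome membrane, had values of −0.0887 to 0.0692 with a median of −0.0510 in MRL/MpJ and of −0.0201 to 0.0683 with a median of 0.0377 in C57BL/6J. Its difference was −0.20 (SE 0.07, adjusted p = 0.0757 by the exact permutation test), and it was −0.15 to −0.42 under the 3 ratios and 0.80 with no normalization. Of the ratios only that to *Gapdh* alone passed (adjusted p = 0.00587 by the exact permutation test). With no normalization it passed in the other direction (adjusted p = 0.00333). Without signals 1 to 3 of MRL/MpJ the difference of *Map1lc3a* was −0.31 (adjusted p = 0.00382 by the exact permutation test). Without signals 4 to 6 or 7 to 9 of that strain it was −0.12 and −0.18 (adjusted p = 0.202 and 0.149 by the same test). *Ulk1*, the kinase that starts autophagy, differed by 0.20 (SE 0.13). It was −0.0192 without signals 1 to 3 of MRL/MpJ and 0.42 without its signals 7 to 9 (adjusted p = 0.00669 by the exact permutation test), and −0.0117 as a ratio to all reference genes. *Atg7* differed by 0.11 (SE 0.09) and *Becn1* by −0.15 (SE 0.15). None of the 3 mRNAs of cell cycle arrest passed either. *Cdkn1a*, the p21 inhibitor of cyclin-dependent kinases, had a difference of 0.01 (SE 0.12, adjusted p = 0.979 by the exact permutation test), with a mean of −0.00596 ± 0.0884 (SD, n = 9) in MRL/MpJ and −0.00884 ± 0.0571 (SD, n = 9) in C57BL/6J. As a ratio to all reference genes it was lower in MRL/MpJ, at −0.52 (adjusted p = 0.0257 by the exact permutation test), and the call was lost on means of runs (adjusted p = 0.559 by limma). *Trp53* differed by 0.13 and *Cdkn2a* by −0.14, and as that ratio by −0.43 and −1.03 (adjusted p = 0.0204 and 0.0175 by the exact permutation test). All 3 of the list were thus lower as that ratio, where 31.3% of all 67 were and the median was −0.26. *Cdkn2a* had a median signal of 4 in both strains and a difference of 0.06 before normalization.

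None of the 10 mRNAs of TGF-beta, BMP and other growth factors and none of the 5 adipokines passed. The growth factor list had a median of 0.06 and ran from −0.02 for *Tgfb1* to 0.21 for *Chrdl1*, a BMP antagonist. As ratios to all reference genes none of the 10 passed either, with a median of −0.16. The adipokines ran from −0.13 for *Apln* to 0.16 for *Adipoq*. As ratios to all reference genes they had a median of −1.04, and 3 of 5 were lower in MRL/MpJ, where 31.3% of all 67 were, *Apln* at −1.08 (adjusted p = 0.0110 by the exact permutation test), *Lep* at −1.04 and *Retn* at −1.04 (adjusted p = 0.0131 for each). The median signals of these 3 were 5 to 12 in both strains. The fat markers *Adipoq*, *Lep* and *Retn* had a summed signal of 36 to 85.5 in MRL/MpJ and 28 to 53.5 in C57BL/6J, and their mean normalized values overlapped between strains.

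**Figure D4:**
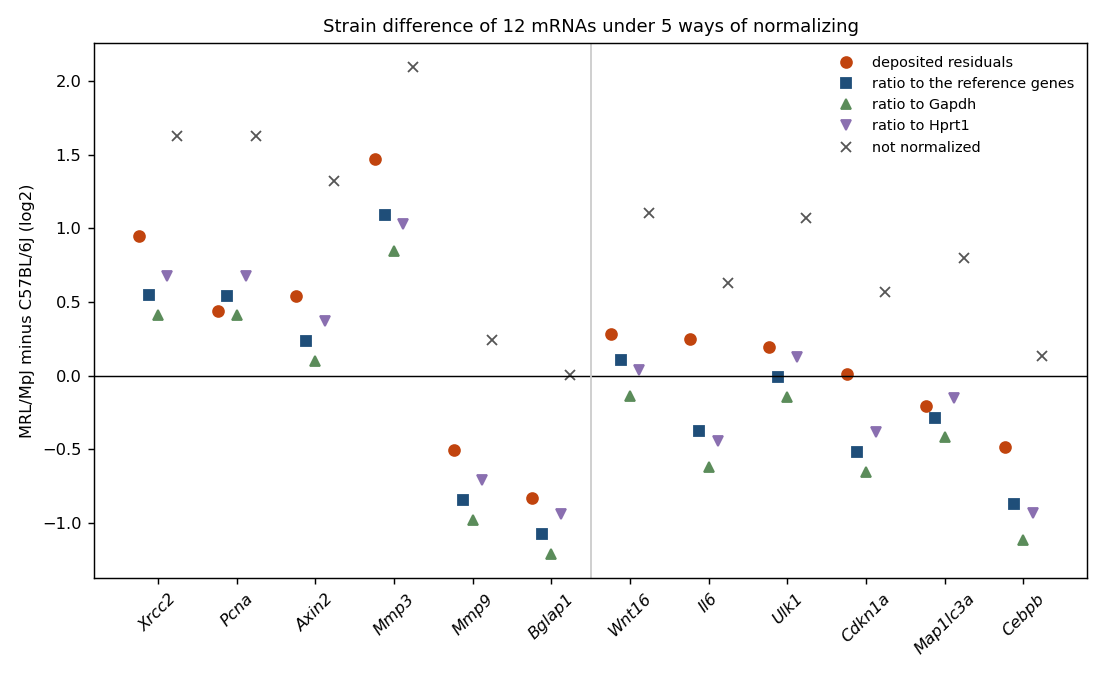
Difference of 12 mRNAs, MRL/MpJ minus C57BL/6J on the log2 scale, under 5 ways of normalizing (symbols). The 6 at the left passed in the deposited values and lie on 1 side of 0 except *Mmp9* (0.24) and *Bglap1* (0.01) without normalization, while *Il6* and *Cdkn1a* at the right have values on both sides.

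The place of the 2 strains among all 8 differed between the 6 mRNAs. C57BL/6J had the lowest mean of *Xrcc2*, *Pcna*, *Axin2* and *Mmp3* and the highest of *Mmp9*. MRL/MpJ had the highest mean of *Xrcc2*, at 0.107 ± 0.0637 (SD, n = 9), next to LG/J, another healer, at 0.0987 ± 0.0469. For *Pcna*, LG/J was above MRL/MpJ (0.129 ± 0.0686 against 0.0445 ± 0.0620). For *Mmp3*, 2 recombinant inbred lines bred from LG/J and SM/J were above MRL/MpJ, the healer LGXSM-6 at 0.260 ± 0.319 and the non-healer LGXSM-33 at 0.223 ± 0.214 (n = 12 each). For *Bglap1*, MRL/MpJ at −0.224 ± 0.109 was second lowest, and the lowest was the intermediate healer LGXSM-35 at −0.272 ± 0.0344.

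**Figure D5:**
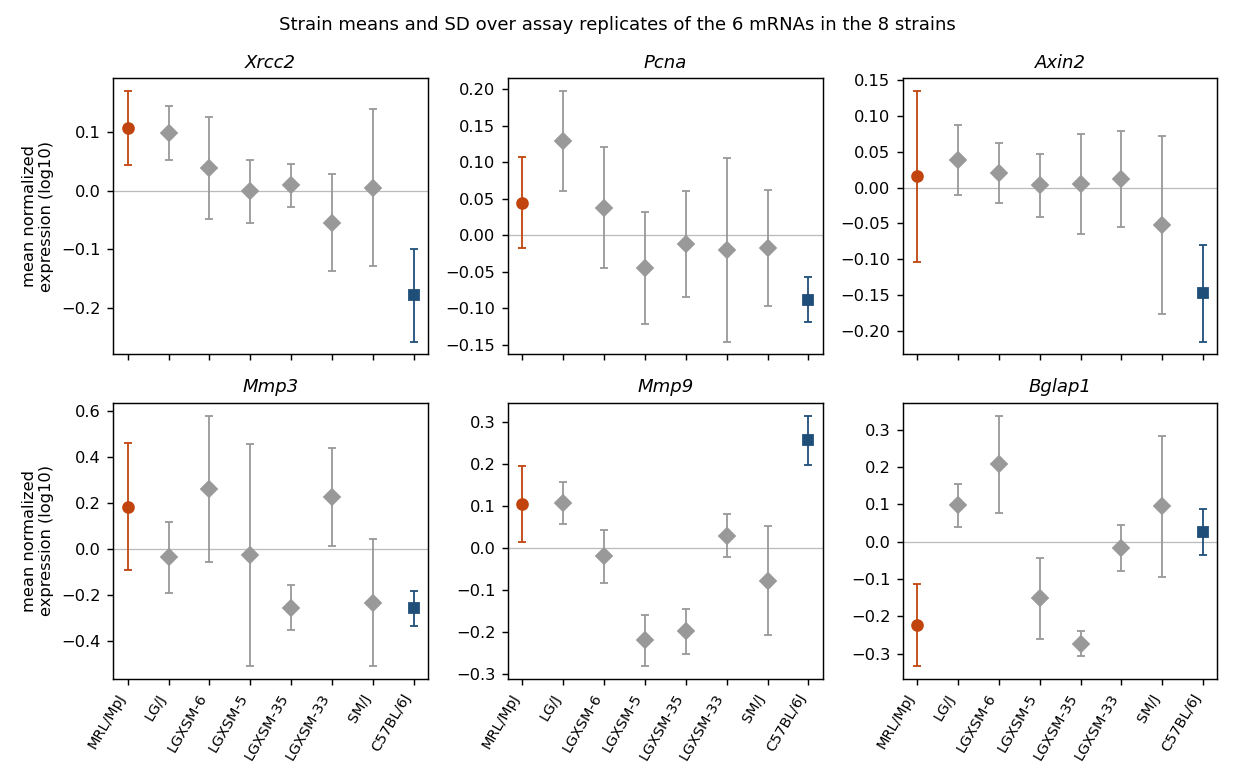
Mean normalized expression (log10) of the 6 mRNAs in the 8 strains, with bars of 1 SD over 8 to 12 assay replicates, ordered from the healers MRL/MpJ, LG/J and LGXSM-6 over the intermediate LGXSM-5 and LGXSM-35 to the non-healers LGXSM-33, SM/J and C57BL/6J. C57BL/6J (square) is at the bottom for *Xrcc2*, *Pcna*, *Axin2* and *Mmp3* and at the top for *Mmp9*, and MRL/MpJ (circle) is at the top only for *Xrcc2*.

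The other pair of a healer and a non-healer among the parental strains, LG/J and SM/J, shares no sample with this comparison. LG/J is a founder of the MRL/MpJ strain and the 2 share much of their genome, so the healers of the pairs are not unrelated. The difference MRL/MpJ minus C57BL/6J departed from LG/J minus SM/J in 5 of the 67 mRNAs (7.46%) by limma's interaction term over 8 strains, which treats assay replicates as independent. For *Mmp9* the differences ran in opposite directions, −0.50 in MRL/MpJ minus C57BL/6J and 0.61 in LG/J minus SM/J (interaction −1.12, SE 0.16, adjusted p = 7.35e-08 by limma). For *Bglap1* LG/J and SM/J differed by 0.01, against −0.83 (interaction −0.84, SE 0.23, adjusted p = 0.00541 by limma). *Xrcc2* was higher in the healer of each pair, by 0.95 and 0.31 (interaction 0.64, SE 0.17, adjusted p = 0.00541 by limma). The other 2, *Adipoq* (0.16 against −1.09) and *Trp53* (0.13 against −0.36), had not passed between MRL/MpJ and C57BL/6J and are named after their values were seen. All 5 were in the second panel. With means of runs there, a fit added after the data were seen, 1 of 34 passed by limma (2.94%), *Mmp9* (adjusted p = 0.0187). *Pcna* was higher in LG/J than in SM/J by 0.49, *Axin2* by 0.30 and *Mmp3* by 0.66, and their interaction terms did not pass (adjusted p of 0.848, 0.409 and 0.450 by limma). The SE of these terms was 0.18, 0.17 and 0.60, so they do not show that the pairs are alike. No test of LG/J against SM/J alone is given here.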

How the data were processed

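Homogenates of knee joint sections were assayed with 2 QuantiGene Plex panels, of 33 target mRNAs with 3 reference genes and of 34 with 2. The authors deposited the log10 of the signals and the log10 residuals of a multiple regression on the reference genes, over all strains. The methods name a background subtraction, and the files do not say whether the signals precede it. Residuals recomputed here differed from the deposited ones by at most 1.68e-05 in the first panel and 0.0269 in the second for these strains. The deposited fold changes and strain averages were not used. Columns were grouped by the strain in their header, with 0 left out.

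Differences of means were tested with the two-sided exact permutation test over 48620 splits (smallest p 4.11e-05), with Benjamini-Hochberg adjustment over 67 mRNAs and a threshold of 0.05, and converted to the log2 scale. No filter on signal was applied. Alternatives were other normalizations, tests and filters, and leaving out each replicate number. Means or omissions of runs were added after the data were seen. The mRNAs and the 11 lists were chosen with earlier results of these data known. Named were the largest differences without overlap, up to 4 per list that passed, 9 that the study names and the reference genes. Others are given as values of their list. One target mRNA is not reported here and enters the adjustment. Of 69 symbols, 65 matched the RefSeq annotation and 4 an older name. Python 3.11.15, numpy 2.4.6, scipy 1.17.1, pandas 2.3.3, matplotlib 3.10.9, R 4.3.3 and limma 3.58.1 were used. Simulated data used as a check had independent assay replicates, with no reference genes and no runs. They do not bear on the normalizations or on the spread between runs.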

Additional observations from a re-analysis of the deposited data

Results flagged for a closer look

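In C57BL/6J, 1 assay replicate stood apart from the other 8 in each of 2 mRNAs, of 34 groups examined, and chance alone marks about 1 in 20 such groups. For *Il6* it was the lowest, at −0.218, and for *Axin2* the lowest, at −0.303 (log10). The difference between MRL/MpJ and C57BL/6J departed from that between LG/J and SM/J, by limma's interaction term on the log2 scale, by −1.12 for *Mmp9*, 1.24 for *Adipoq*, −0.84 for *Bglap1*, 0.64 for *Xrcc2* and 0.49 for *Trp53*. With means of runs as the values, *Mmp9* passed (adjusted p = 0.0187) and the other 4 had an adjusted p of 0.184 to 0.324 by limma.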

How the results depend on the processing

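The counts of mRNAs past the threshold (7, with 5 higher and 2 lower) depended on the normalization. They were 25 with 21 lower as ratios to all reference genes, 37 with 0 higher and 37 lower as ratios to *Gapdh*, 2 higher and 8 lower as ratios to *Hprt1*, 51 with 51 higher and 0 lower without normalization, and 19 with 14 higher and 5 lower with strain and reference genes in one model. limma gave 5 lower on the 2 strains and 8 higher on all 8 strains. Without adjustment the permutation test and the methods' t-test each gave 18, with 10 higher and 8 lower. On means of runs, limma gave 2, with 1 higher and 1 lower, and as ratios to all reference genes 0, with 0 higher and 0 lower (14 at an unadjusted p under 0.05, smallest adjusted p 0.0635). Leaving out each run gave 4 (without C57BL/6J signals 4 to 6) to 25 (without MRL/MpJ signals 4 to 6), with 2 to 19 higher and 2 to 8 lower. It was 12 without MRL/MpJ signals 1 to 3 and 13 without 7 to 9. Leaving out each replicate number gave 7 to 9, with 5 to 6 higher and 2 to 3 lower. The cause was not tested. Same-numbered assay replicates correlated in their deviations by 0.220 to 0.332 in 8 of 9 numbers and by −0.126 in the other, and 2 of the 9 of each strain correlated best with their own number. They come from different mice, and not every number was over 0.1, so the assay replicates were not treated as pairs. With the replicate number as a block, 8 passed, 5 higher and 3 lower, and *Axin2* had an adjusted p of 0.0582.

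Differences that changed sign were, as ratios to all reference genes, *Cdkn1a* (−0.52), *Il6* (−0.37) and *Ulk1* (−0.0117), with the same values on means of runs. As ratios to *Gapdh* they were *Cdkn1a* (−0.65), *Il6* (−0.62), *Ulk1* (−0.15) and *Wnt16* (−0.14), and to *Hprt1* *Il6* (−0.44) and *Cdkn1a* (−0.38). Without normalization they were *Map1lc3a* (0.80), *Mmp9* (0.24), *Cebpb* (0.13) and *Bglap1* (0.00787). Leaving out each run or replicate number gave *Wnt16* −0.0409 to 0.47, *Ulk1* −0.0192 to 0.42, *Il6* −0.00974 to 0.47 and *Cdkn1a* −0.0989 to 0.19, with the first 3 negative only without MRL/MpJ signals 1 to 3. *Cdkn1a* was −0.0576 there and also negative without MRL/MpJ signals 7 to 9 (−0.0989), C57BL/6J signals 4 to 6 (−0.0887) or replicate 1, 2 or 7 (−0.0358, −0.0167 and −0.0222). Among the reference genes, the difference of medians of *Hprt1* in the second panel was 0.93 (adjusted p = 0.0543 by the exact permutation test), and *Actb* ranged from 0.56 to 0.82 without each replicate in turn and lost its call without replicate 4, 5 or 6 (0.62, 0.61 and 0.56). The interaction with LG/J and SM/J passed in 9 mRNAs as ratios, 1 without normalization, 14 without adjustment and 1 with means of runs. Over all settings, 279 differences of the 12 named mRNAs kept their direction and side of the threshold, 26 lost their call, 18 gained one and 25 changed sign. Those that changed sign are counted only there, also where they lost or gained a call. Median signals of 7 to 14 limit *Il6*, *Wnt16*, *Axin2*, *Xrcc2* and *Mmp3* in C57BL/6J.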
